A study of Mus musculus with 2 samples.

Results

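The mouse mitochondrial genome encodes 37 genes, and all 37 were found among the 55536 annotated genes by symbols that begin with mt-. They were 13 mRNAs for subunits of the respiratory chain and ATP synthase, the 2 rRNAs of the mitochondrial ribosome and 22 tRNAs. Of the 37 genes, 28 lay on the plus strand of the annotated genome and 9 on the minus strand, among them the mRNA mt-Nd6 and 8 tRNAs. Each was read in the deposited gene tables, in expected counts and in TPM, a length-scaled abundance, and in a second deposited quantification of the same reads.

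The study sequenced total RNA of whole adrenal glands from female B6CASTF1/J mice aged 2 months, with no treatment or other genotype in the labels. It held 1 group of 2 libraries, labelled biological replicates 1 and 2, each made from 300 ng of RNA with ERCC spike-in RNA for stranded, ribosomal RNA reduced libraries. The labels conflict on the animals: both library descriptions give the same mouse number, the tissue entries give different numbers, and the donor entry is shared. The spread between the replicates may therefore be that between mice or within a mouse, and no p-value was computed from 2 libraries.

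Expected counts over the annotated genes summed to 34203664 in replicate 1 and 35959484 in replicate 2. They differed well beyond sampling noise, with a chi-square statistic 77.3 times its degrees of freedom over 17308 genes. The 10 fixed markers of adrenal cortex were present at 83.7 to 4122 TPM in replicate 1 and 95.8 to 4634 TPM in replicate 2, and the 7 markers of adrenal medulla were detected in both. All 6 markers of brown fat, a tissue that can lie beside the gland, were detected too, at 653 and 1270 TPM in sum. In whole tissue, fewer cells of a type and less RNA per cell cannot be told apart. The intervals cover counting error only, as PCR can yield several reads of 1 molecule.

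Mammalian mitochondrial DNA is transcribed from both strands as long precursors, by the RNA polymerase Polrmt with the factors Tfam and Tfb2m. Most precursors are cut at the tRNAs that lie between the rRNAs and mRNAs, which releases the RNAs on either side. In the adrenal cortex mitochondria also house steps of steroid synthesis, among them the side chain cleavage of cholesterol by Cyp11a1. By the naming convention for F1 hybrids, which puts the mother's strain first, the mitochondrial genome of these mice is that of the C57BL/6J parent.

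The gene order is shown first at the rRNAs, where tRNA genes sit directly between the long RNAs. mt-Tf and mt-Tv flank mt-Rnr1 (chrM:70-1024), mt-Tv and mt-Tl1 flank mt-Rnr2 (chrM:1094-2675), and mt-Nd1 starts at the base after mt-Tl1. All 3 lie on the plus strand of mm10, and the sequences are those of GENCODE M21.
mt-Tf (chrM:1-68): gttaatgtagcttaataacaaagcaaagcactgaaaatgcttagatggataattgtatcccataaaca
mt-Tv (chrM:1025-1093): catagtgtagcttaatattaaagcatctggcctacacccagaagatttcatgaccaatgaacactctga
mt-Tl1 (chrM:2676-2750): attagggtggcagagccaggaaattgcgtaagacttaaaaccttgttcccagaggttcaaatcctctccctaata

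At 3 places mRNAs overlap by several bases and a read can belong to both. mt-Atp6 also ends at the base where mt-Co3 starts, chrM:8607. mt-Atp8 and mt-Atp6 share 43 bases and mt-Nd4l and mt-Nd4 share 7, and in mammals each of these pairs is carried on 1 RNA. mt-Nd5 and mt-Nd6 share 14 bases on opposite strands. The stretches below are printed 5′ to 3′ on the strand of the named gene, with the shared bases in capitals.
mt-Atp8 (chrM:7917-7969, plus strand): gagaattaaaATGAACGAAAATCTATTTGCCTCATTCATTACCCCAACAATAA
mt-Nd4l (chrM:10157-10173, plus strand): acctactacaATGCTAA
mt-Nd5 (chrM:13542-13565, plus strand): ttatactcaaTTAATCTCGAGTAA
mt-Nd6 (chrM:13552-13575, minus strand): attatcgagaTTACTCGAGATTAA

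A further set of sequences bears on which gene a read is given to. The nuclear genome carries a copy of mitochondrial DNA on the minus strand at chr1:24611535-24616197, in which 7 annotated genes match 7 mitochondrial mRNAs in the same order with at most 0.5% of bases different. Gm28661 matched mt-Co2 over 681 bases, Gm10925 matched mt-Atp6 over 678, Gm28437 matched mt-Co3 over 783, Gm10222 matched mt-Nd4l over 294 and Gm28439 matched the first 876 bases of mt-Nd4, each with 0 mismatches. Gm29216 matched bases 1063 to 1545 of mt-Co1 with 1 mismatch, A1066T, and Gm28438 matched mt-Nd3 over 345 bases with 1 mismatch, T3C, counted from the first base of the mitochondrial gene, whose base is given first. Those mismatches, and the end of mt-Co2 that Gm28661 lacks, are in capitals in the following lines.
mt-Co1 (chrM:6390-6423, plus strand): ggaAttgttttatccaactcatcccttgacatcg
Gm29216 (chr1:24616155-24616188, minus strand): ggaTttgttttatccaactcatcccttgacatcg
mt-Nd3 (chrM:9459-9491, plus strand): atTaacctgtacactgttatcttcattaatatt
Gm28438 (chr1:24613087-24613119, minus strand): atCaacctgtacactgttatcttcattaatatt
mt-Co2 (chrM:7667-7696, plus strand): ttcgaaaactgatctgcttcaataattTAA
Gm28661 (chr1:24614885-24614911, minus strand): ttcgaaaactgatctgcttcaataatt

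The 6 other mRNAs and both rRNAs had no annotated copy of that identity. Of these, mt-Atp8 (chrM:7766-7969) lies wholly inside the mitochondrial stretch that the copy spans, chrM:6390-11042, and its last 43 bases are the first of mt-Atp6, which Gm10925 matches. A further 10 annotated sequences, at 90% identity or more over at least 100 bases, held 275 and 486 counts in all in replicates 1 and 2. Gm10222 was matched by its sequence after the values had been seen. Because reads from identical stretches cannot be placed, each of the 7 mRNAs is described both alone and summed with its copy.

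The mitochondrial genome took 16.7% of counts in replicate 1 and 20.1% in replicate 2. The mRNAs took 5.41% (exact 95% interval 5.40 to 5.41) and 8.84% (8.83 to 8.85), which is 7.12% ± 2.43 (SD, n = 2). The rRNAs took 11.25% and 11.27%, which is 11.3% ± 0.0108. The tRNAs held 0 counts. In expected counts the rRNA share was thus nearly equal in both libraries, and the mRNA share was higher in replicate 2. The rRNA share was 11.5% and 10.8% in the second quantification, and 9.73% and 10.8% by TPM, so its order between the libraries was not fixed. With the chromosome 1 copies added, the mRNA share was 7.64% in replicate 1 and 12.6% in replicate 2.

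mt-Rnr1, the small rRNA, had 54640 and 60732 TPM in replicates 1 and 2, and mt-Rnr2, the large rRNA, had 42650 and 47651 TPM. Each was above every mitochondrial mRNA in both libraries. The TPM of mt-Rnr2 was 0.781 and 0.785 times that of mt-Rnr1. In the second quantification the ratio was 0.927 in replicate 1 and 1.04 in replicate 2, so the order of the rRNAs depended on the quantification. The libraries had undergone ribosomal RNA reduction, and the sources used here do not say how far that step acts on these rRNAs.

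Among the mRNAs, those of cytochrome c oxidase, complex IV, and mt-Atp6 stood highest once the copies were added. mt-Atp6, the membrane subunit of ATP synthase next to its rotor, had 17297 TPM in replicate 1 and 33108 in replicate 2. mt-Co2, which takes electrons from cytochrome c, had 14436 and 24979 TPM. mt-Co1, the catalytic subunit, had 11532 and 20958 TPM, and mt-Co3, the other core subunit encoded here, had 10105 and 17625 TPM. In both replicates each of these 4 was above the other 9 mRNAs, whose highest values were 7748 and 15615 TPM. All 4 have a chromosome 1 copy, and so do mt-Nd3, mt-Nd4l and mt-Nd4 of the lower group.

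mt-Cytb, the only subunit of complex III encoded in the organelle, had 7748 TPM in replicate 1 and 13671 in replicate 2. mt-Atp8, a small membrane subunit of ATP synthase, had 6552 and 15615 TPM. These values are those of the mitochondrial gene in the table, as neither has a near-identical annotated copy, but for mt-Atp8 reads of the nuclear stretch are not kept apart. In replicate 1 mt-Cytb was the higher, and in replicate 2 mt-Atp8 was, so their order was not fixed.

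The 7 mRNAs of complex I, NADH dehydrogenase, spread most widely. mt-Nd1 had 6516 and 12471 TPM in replicates 1 and 2, and mt-Nd2 had 5045 and 9861 TPM. Both encode subunits of the membrane arm that pumps protons, as do the others of this group. mt-Nd4l, summed with its copy, had 5655 and 9465 TPM, and thus stood above mt-Nd2 in replicate 1 and below it in replicate 2. mt-Nd4, the following gene, had 4905 and 9167 TPM. mt-Nd3 had 3994 and 7066 TPM, and mt-Nd5, the longest mRNA, had 2838 and 5327 TPM. With the copies added, mt-Nd5 was the lowest mRNA of the plus strand in the gene tables in both replicates. mt-Nd6, at 522 and 530 TPM, was the lowest of all there. Without its copy mt-Co2 was lower than both, at 109 and 23.3 TPM. In the second quantification, copies included, mt-Atp8 at 0 and mt-Nd4l at 115 and 528 TPM were below mt-Nd6, at 1012 and 660 TPM. There mt-Nd3, at 6854 TPM, was also below mt-Nd5, at 7267 TPM, in replicate 2.

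Ranked by these summed levels, 9 of the 13 mRNAs held the same place in both libraries, and the other 4 were the pairs mt-Cytb with mt-Atp8 and mt-Nd2 with mt-Nd4l. From the highest to the lowest plus-strand mRNA the level differed 6.10-fold in replicate 1 and 6.21-fold in replicate 2. The Spearman correlation of level with gene order over the 12 plus-strand mRNAs was -0.357 in replicate 1 and -0.455 in replicate 2. These values describe genes of the same libraries, which are not independent of each other.

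**Figure D1:**
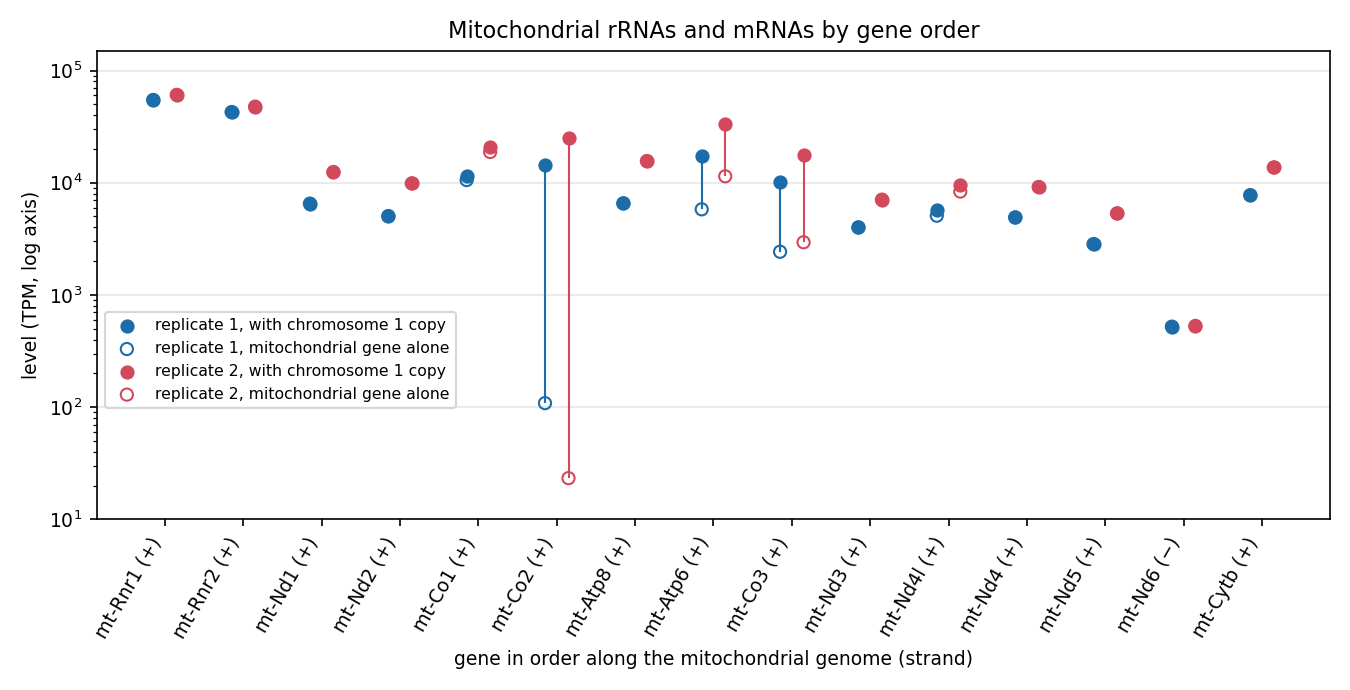
Level in TPM, on a log axis, of the 2 rRNAs and 13 mRNAs in gene order, with the strand in brackets and 1 colour per replicate. Open circles are the mitochondrial gene alone and filled circles the gene with its chromosome 1 copy, joined by a line. mt-Co2 alone was at 109 and 23.3 TPM and with its copy at 14436 and 24979, and mt-Nd6 was the lowest filled point.

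The split of reads between the mitochondrial genes and their copies differed by gene. For mt-Co2 the gene itself held 2221 expected counts in replicate 1 and 450.0 in replicate 2, against 293150 and 482177 on Gm28661. The mitochondrial gene thus received 0.752% and 0.0932% of the counts of the pair. mt-Atp6 received 33.5% and 34.5%, with 117910 and 219330 counts beside 234170 and 417071 on Gm10925. mt-Co3 received 23.999% and 16.7%, with 58102 and 66627 counts beside 183996 and 332112 on Gm28437. For these 3 mRNAs most counts were on the nuclear copy in both libraries.

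The other 4 pairs went mostly to the mitochondrial gene. mt-Co1, of which the copy spans the last part, kept 91.6% and 89.5% of the counts, with 49171 and 104802 on Gm29216. mt-Nd4l kept 89.9% and 88.1%, with 3971 and 7368 counts on Gm10222. mt-Nd3 and mt-Nd4 kept 100% in both replicates, since Gm28438 and Gm28439 held 0 counts. All 7 copies together held 29.3% and 29.7% of the counts on mRNAs and copies.

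The second quantification split the same pairs in another way. It gave mt-Atp6 99.50% and 97.8% of the pair in replicates 1 and 2, where the gene tables gave it the smaller share. It gave mt-Co2 3.89% and 0.845%, mt-Co3 33.02% and 25.6%, mt-Co1 98.7% and 97.3%, and mt-Nd4 94.9% and 99.45%. The copies together held 16.6% and 16.8% of counts there. mt-Co2 was given mainly to its copy in both quantifications, and mt-Atp6 changed sides.

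The deposited gene tables also held a posterior mean count, a second estimate from the same reads. By this estimate mt-Co2 received 13.6% and 11.3% of its pair in replicates 1 and 2, mt-Co3 43.8% and 45.2%, and mt-Atp6 39.3% and 45.0%. The summed counts of gene and copy were the same by either estimate, within 0.000182%. The deposited TPM of mt-Co2, 109 and 23.3, lay below its deposited interval of 1397 to 2399 in replicate 1 and 1990 to 3684 in replicate 2. The TPM of 14 of the 15 long genes lay outside its interval in each library. For the 8 without an annotated copy the posterior mean TPM was 0.980 to 0.981 times the TPM, whereas for mt-Co2 it was 17.7 and 119 times, and for mt-Co3 1.79 and 2.65 times.

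**Figure D2:**
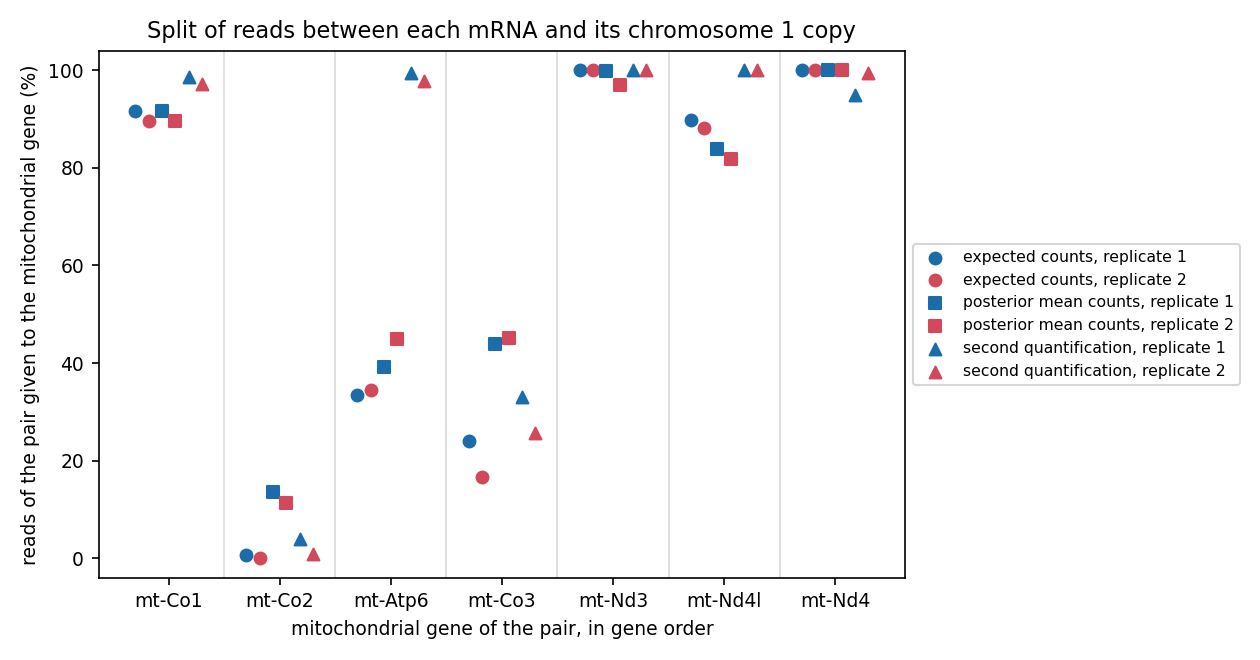
Percent of the reads of each pair of mitochondrial gene and chromosome 1 copy that was given to the mitochondrial gene, by estimate (marker shape) and replicate (colour), in gene order. mt-Co2 was at 13.6% or below by every estimate shown, mt-Atp6 ranged from 33.5% to 99.50%, and mt-Nd3 and mt-Nd4 were at 94.9% or above.

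Overlapping neighbours were compared by length-scaled level in the gene tables. mt-Atp6 with its copy was 2.64 times mt-Atp8 in replicate 1 and 2.12 times in replicate 2. Taken alone, mt-Atp6 was at 0.884 and 0.731 times mt-Atp8. mt-Nd4, which has all the counts of its pair, was 0.867 and 0.968 times mt-Nd4l with its copy. With the copy the first pair differed by more than the spread between the replicates, and without it the direction was opposite. The second pair lay near equal in the gene tables. These levels spread counts over the annotated length less 99 bases. That left 198 of 297 bases for mt-Nd4l and 1279 of 1378 for mt-Nd4, so the ratios depend on this shortening. In the second quantification, copies included, mt-Nd4l was at 115 and 528 TPM in replicates 1 and 2, beside mt-Nd4 at 8666 and 12811. mt-Atp8 was at 0 there, so the first pair had no ratio.

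Summed with their copies, the 3 shortest mRNAs differed most in counts between the quantifications. mt-Atp8, of 204 bases, had 24061 and 54150 expected counts in the gene tables and 0 counts in both libraries in the second quantification. The floor for a count of 0 there was 0.0882 and 0.0829 CPM. Since the gene tables gave mt-Atp8 far more of the same reads, that floor is no bound on its level. mt-Nd4l, of 297 bases, had 39163 and 61898 expected counts with its copy against 189 and 890. mt-Nd3, of 348 bases, had 41.5% and 26.2% as many counts in the second quantification, copies included. mt-Nd5, of 1824 bases, had 102% and 101% as many. The Spearman correlation of length with the ratio of summed counts, second over first, was 0.965 in replicate 1 and 0.972 in replicate 2 over the 12 mRNAs with counts in both. These genes share libraries and reads, so this describes the tables.

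The quantifications also differed in how far they shortened each gene. In the gene tables the effective length, over which counts are spread to give TPM, was the annotated length less 99 bases for each long mitochondrial gene. In the second quantification mt-Rnr2 was shortened by 327 bases in replicate 1 and 316 in replicate 2. The TPM of all genes was higher in the second quantification, by a median log2 of 0.70 over 11990 genes. Relative to that median 7.47% of all genes were over 1.5-fold apart. Of the 12 mitochondrial mRNAs with values, taken without their copies, 3 were. These were mt-Co2, higher in the second quantification by 2.79 on the log2 scale, mt-Atp6, higher by 1.17, and mt-Nd4l, at -5.43. With its copy, mt-Co2 had 26966 and 36334 TPM in the second quantification, against 14436 and 24979 in the gene tables. mt-Atp6 with its copy had 24536 and 36865 TPM against 17297 and 33108, but only 61.7% and 59.4% as many counts. mt-Nd4l with its copy stayed far lower, at 115 and 528 against 5655 and 9465 TPM. mt-Atp8 had no such ratio, since it was listed at 0 in the second quantification, and its 24061 and 54150 counts against 0 made it the most discordant mRNA without an annotated copy.

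mt-Nd6, a membrane subunit of complex I and the only mRNA of the minus strand, had 7665 and 7347 expected counts in replicates 1 and 2. Its 522 and 530 TPM correspond to 526 ± 5.54 TPM (SD, n = 2). The second quantification gave 836 ± 248 TPM, from 1012 and 660, so the small SD holds for the gene tables only. In the gene tables the median of the 12 plus-strand mRNAs with their copies was 6534 TPM in replicate 1 and 13071 in replicate 2. That is 12.5 and 24.7 times the level of mt-Nd6. Without the copies the median was 9.70 and 17.96 times as high, and in the second quantification 7.45 and 15.2 times. In each case the gap was wider in replicate 2.

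On the genome mt-Nd6 lies between mt-Nd5 and mt-Cytb, which are on the other strand. mt-Nd5 was at 5.44 and 10.1 times the level of mt-Nd6 in replicates 1 and 2, and mt-Cytb at 14.8 and 25.8 times. mt-Nd6 made up 0.293% and 0.162% of the counts on mitochondrial mRNAs and their chromosome 1 copies together. The linked library document is for a directional kit, but the sources used here do not say whether reads were counted by strand. Without such counting, reads of plus-strand precursors across mt-Nd6 could not be told from its own.

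The 22 tRNAs held 0 counts in both libraries and in both quantifications. They are 59 to 75 bases long, as in the sequences of mt-Tf, mt-Tv and mt-Tl1 above, and their effective length in the gene tables was 0. Over all annotated genes 2398 had an effective length of 0, and these held 0 counts in each library. A count of 0 here therefore gives no bound on the level of a tRNA. In the second quantification the tRNAs had effective lengths of 19.2 to 24.6 bases and 0 counts.

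Between the replicates the mRNAs of the plus strand stood apart from the rRNAs and from mt-Nd6. In counts scaled by the trimmed mean of M-values, 12 of 13 mRNAs with their copies were over 1.5-fold higher in replicate 2, and these were the 12 of the plus strand. Taken alone, 10 of 13 were over 1.5-fold higher and 1, mt-Co2, was that far lower. Among the 12171 genes that averaged at least 100 counts, 2.51% were over 1.5-fold higher in replicate 2 and 5.64% were that far apart in either direction. The median log2 ratio of the mRNAs with their copies was 0.77, and that of all genes was -0.01, with quartiles at -0.17 and 0.16. The 12 plus-strand mRNAs are cut from precursors of the same strand and read in the same 2 libraries, so they are not independent of each other.

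With their copies, the plus-strand mRNAs were between 1.57-fold and 2.24-fold higher in replicate 2. The lowest ratio was that of mt-Nd4l, 1.57-fold (95% interval 1.55 to 1.59), and the highest that of mt-Atp8, 2.24-fold (2.20 to 2.27). mt-Nd2 was 1.84-fold higher (1.82 to 1.85) and mt-Cytb 1.66-fold (1.65 to 1.66). The Spearman correlation of the ratio with gene length was 0.0629 over the 12 genes, and with gene order it was -0.378. mt-Rnr1 had a ratio of 1.04 (1.04 to 1.05) and mt-Rnr2 of 1.05 (1.05 to 1.05), and mt-Nd6 had a ratio of 0.953 (0.923 to 0.984). The counts on rRNAs were 1.47 times those on mRNAs and copies in replicate 1 and 0.896 times in replicate 2.

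By expected counts mt-Co2 alone was 4.96-fold higher in replicate 1 (95% interval 4.48 to 5.50), on 2221 and 450.0 counts. With Gm28661 it was 1.63-fold higher in replicate 2 (1.62 to 1.63). The second quantification also put mt-Co2 alone higher in replicate 1, by 2.98-fold. The posterior mean counts of mt-Co2 alone went the other way, at 40051 in replicate 1 and 54460 in replicate 2. mt-Co3 alone was 1.14-fold higher in replicate 2, and with Gm28437 1.64-fold. The 5 mRNAs outside the copied stretch had a median log2 ratio of 0.82, and the 7 with an annotated copy, taken alone, 0.73.

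The second quantification placed most mRNAs alike. With their copies, 12 mRNAs had a median log2 ratio of 0.73 there. Outside the range of 1.57-fold to 2.24-fold seen in the gene tables lay mt-Nd3, at 1.05-fold, mt-Co2, at 1.55-fold, and mt-Nd4l, at 4.61-fold on 189 and 890 counts. mt-Rnr1 was at 0.917 and mt-Nd6 at 0.754 times its replicate 1 value.

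Under 5 other scalings, the log2 ratio of the plus-strand mRNAs with their copies stayed between 0.59 and 1.36. Scaling to the ERCC spike-in counts moved the ratio of every gene up by 0.20, so that the median of all genes was 0.19 and mt-Nd6, at -0.07 in the scaled counts used above, was at 0.13. Relative to the median of all genes its place was the same, and no direction is given for mt-Nd6 or the rRNAs.

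**Figure D3:**
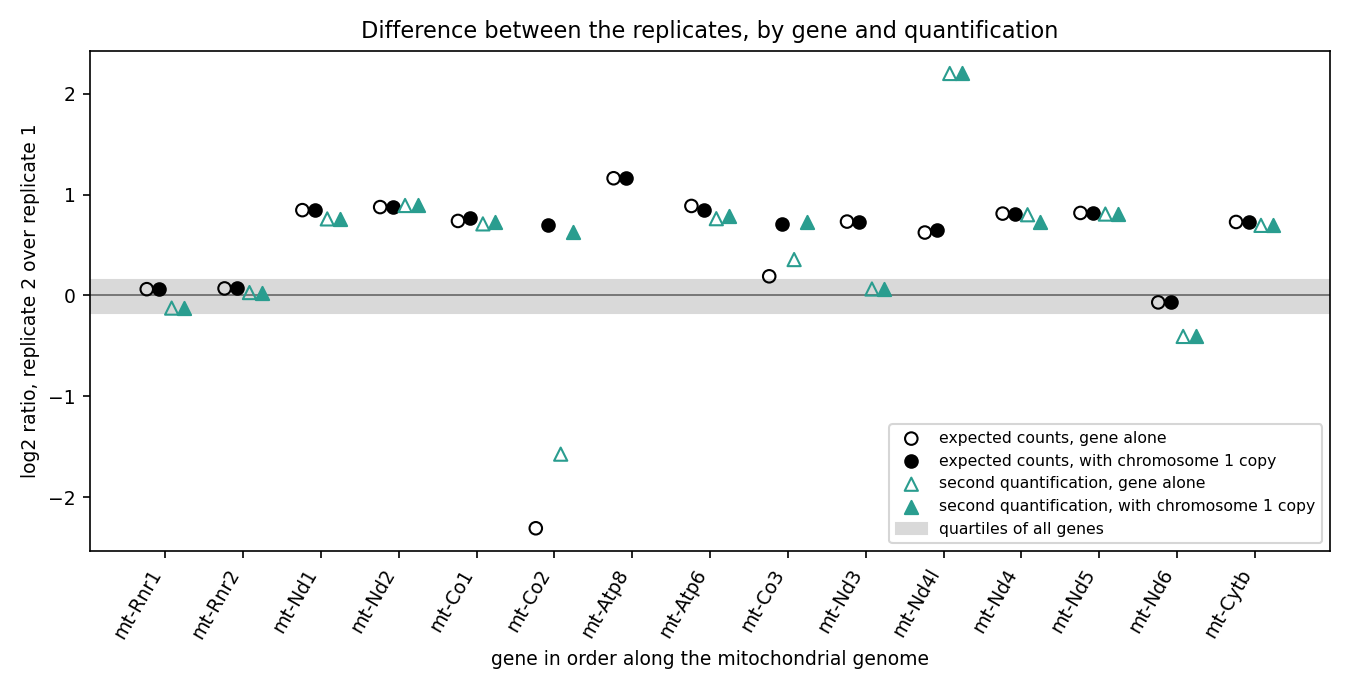
Log2 ratio of scaled counts, replicate 2 over replicate 1, for the 2 rRNAs and 13 mRNAs in gene order. Circles are expected counts and triangles the second quantification, open for the gene alone and filled with the chromosome 1 copy, and the grey band spans the quartiles of all genes. Filled circles of the plus-strand mRNAs lie at 0.65 to 1.16, those of the rRNAs and mt-Nd6 lie inside the band, and mt-Atp8 has no triangle as it held 0 counts.

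Markers of other tissues also differed between the replicates. The 6 brown fat markers were all higher in replicate 2, from 1.30-fold for Cox7a1, a muscle and brown fat subunit of complex IV, to 4.55-fold for Ppargc1a, an activator of mitochondrial genes. Ucp1, which uncouples respiration to make heat, had 10561 and 21765 counts, or 2.05-fold (95% interval 2.00 to 2.10). The list as a whole held 0.0529% and 0.0981% of counts, and none of its members was at 0. The part of brown fat in the mRNA ratio was not tested.

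The kidney markers held 968 and 75 counts in replicates 1 and 2, with Kap, Slc34a1 and Umod at 0 in replicate 2. The liver markers held 9714 and 5934 counts and the blood markers 21170 and 34143. The 7 medulla markers were all lower in replicate 2, with a median log2 ratio of -0.32. The 10 cortex markers had a median of 0.08, with 6 higher in replicate 2 and 4 in replicate 1. Only Cyp11b2 among them was over 1.5-fold apart, at 1.76-fold higher in replicate 1. The 7SL RNAs, parts of the signal recognition particle, held 6.79% of counts in replicate 1 and 3.77% in replicate 2, or 2323971 and 1356113 counts. The second quantification gave them 12 and 4 counts. By TPM in the gene tables they held 33.1% in replicate 1 and 20.4% in replicate 2. As TPM sums to the same total in each library, the TPM of any gene in the 2 replicates also reflects that share. The part of these RNAs in the mRNA ratio was not tested.

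Nuclear genes for subunits of the same complexes lay nearer to the median of all genes. Of 49 such genes 26 were higher in replicate 2 and 23 in replicate 1, with a median log2 ratio of 0.00. Those over 1.5-fold apart were Cox6b1, 1.57-fold higher in replicate 2, and Cox7c and Atp5e, 1.62-fold and 1.84-fold higher in replicate 1. These 3 of 49 are near the 5.64% of all genes. In the second quantification Cox7c turned direction, with a log2 ratio of 0.22 against -0.70. By complex the medians were -0.01 for 16 genes of complex I, 0.11 for 9 of complex III, 0.13 for 10 of complex IV and 0.02 for 14 of complex V. In sum the complex I genes held 1890 and 2186 TPM in replicates 1 and 2, and the complex IV genes 2500 and 3478 TPM. In scaled counts these sums were 1.07-fold and 1.13-fold higher in replicate 2. Cox6b1 was at 327 and 916 TPM, a wider gap than its 1.57-fold in counts. The highest single nuclear subunit, Atp5b, the catalytic beta subunit of ATP synthase, was at 791 and 934 TPM, above mt-Nd6 and below each plus-strand mRNA summed with its copy.

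The nuclear genes that copy, transcribe, process and stabilise mitochondrial nucleic acids were much less abundant. Of 46 listed symbols 45 matched a gene, and together they held 607 TPM in replicate 1 and 690 in replicate 2. Of the 42 that averaged 100 counts or more, 24 were higher in replicate 2 and 18 in replicate 1, and 0 were over 1.5-fold apart, against 5.64% of all genes. Their median log2 ratio was 0.05. The 5 highest were Hsd17b10, a subunit of mitochondrial RNase P, at 57.9 ± 6.88 TPM (SD, n = 2), Slirp at 57.8 ± 7.32, Rexo2, which degrades short RNAs, at 49.3 ± 0.403, Grsf1, a protein of mitochondrial RNA granules, at 43.2 ± 0.863, and Fastk at 30.7 ± 2.45.

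Slirp forms a complex with Lrpprc that stabilises mitochondrial mRNAs, and Lrpprc was at 22.01 and 23.3 TPM in replicates 1 and 2. Among transcription factors, Mterf3 was 1.28-fold higher in replicate 2 (95% interval 1.14 to 1.44), Tfb2m 1.35-fold (1.24 to 1.47) and Mterf1a 1.33-fold (1.01 to 1.75). The counts of Tfb2m and Mterf1a, and of Mterf1b, a paralog of Mterf1a, were not whole numbers, which marks shared reads, so these levels are uncertain. In the other direction Gtpbp3, a tRNA-modifying enzyme, was 1.45-fold higher in replicate 1, Pus1, a pseudouridine synthase, 1.43-fold, and Tfam, which also packages mitochondrial DNA, 1.43-fold. Tfam had 784 and 551 counts but 15.4 and 18.7 TPM, so its count and its level per length went opposite ways.

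**Figure D4:**
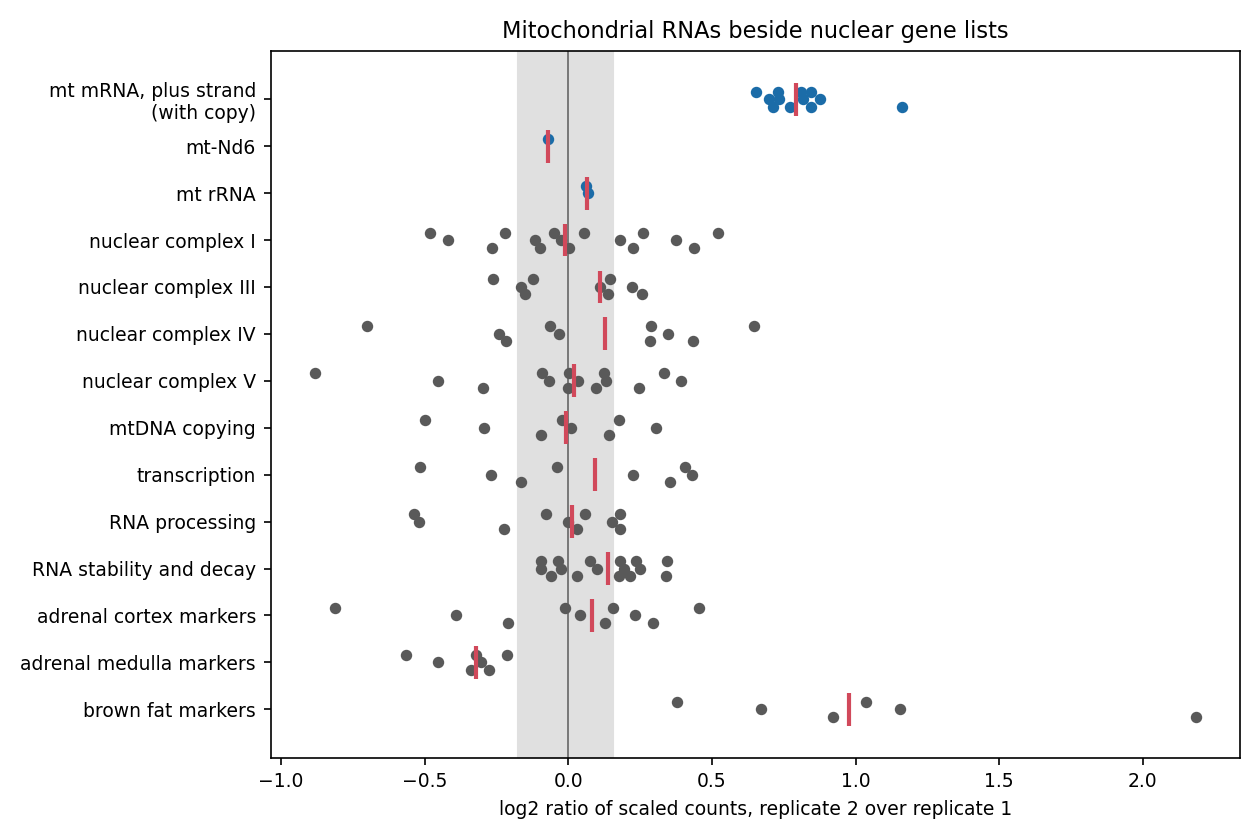
Log2 ratio of scaled counts, replicate 2 over replicate 1, with 1 point per gene and a red bar at the median of each group, for genes that averaged 100 counts or more, the grey band spanning the quartiles of all genes. The plus-strand mitochondrial mRNAs, with copies, lie at 0.65 to 1.16, the nuclear complex medians at -0.01 to 0.13 and the brown fat markers at 0.38 to 2.18.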

How the data were processed

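The authors deposited, per library, a gene table and 2 transcript tables. A deposited list of files names mm10 and GENCODE M21 for all of them. Per the file headers the gene table held an expected count, a posterior mean count, a TPM and the bounds of a TPM interval per gene, under names that RSEM writes. The second quantification held estimated counts and TPM per transcript, under names that kallisto writes, and was summed per gene here. The upper bound of the deposited interval is a signal on the TPM scale and its level was not stated. The aligner, program versions and strand setting are likewise not given in the sources used here.

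Shares were of counts on annotated genes. ERCC rows took 313896 and 275353 counts, and 26248 rows with only a number as identifier took 5.79 and 1. These rows stayed out of totals. Counts were rounded for the chi-square statistic and for the scaling factors of edgeR 4.0.16, 1.02 and 0.978, on 16570 genes. Ratios used a prior of 0.5 counts and exact binomial intervals at 95%. The floor for a count of 0 was 3 counts. DESeq2 1.42.0 size factors, spike-in, total and nuclear protein-coding scalings were alternatives. Copies were found with blastn 2.17.0 over at least 200 bases. The ratio step was tested on simulated data.

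The mitochondrial genes were all named. From the lists of nuclear genes that maintain mitochondrial RNA, the 5 highest and the 3 largest ratios in each direction were named among genes with a mean of at least 100 counts, Lrpprc, Mterf1b, the nuclear subunits and the tissue markers named being chosen after their values were seen. The members and lists were chosen with earlier results of these data known. Gm29217 and Gm28440, listed as copies at first, lie on chromosome Y and held 0 counts. No test between groups was made, as the labels give 1 group.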

Additional observations from a re-analysis of the deposited data

How the results depend on the processing

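The mRNA share of counts, 7.12%, became 10.1% with the chromosome 1 copies added, and stayed within its replicate spread under the other alternatives, at 5.41% to 8.84% with either library left out. The rRNA share, 11.26%, became 11.16% in the second quantification, 10.3% by TPM, 11.9% without 7SL and 11.6% without the copies in the total, and 11.25% to 11.27% with either library left out. The median log2 ratio of the mRNAs taken alone, 0.739, was 0.747 with DESeq2 size factors, 0.674 by total counts, 0.936 by spike-ins, 0.681 by nuclear protein-coding counts, 0.731 without a filter, 0.710 in the second quantification, 0.829 by TPM, and, by alternatives chosen after seeing the data, 0.771 with copies and 0.757 by posterior mean counts. The rRNA ratio, 0.0657, was 0.0736, 0.00139, 0.263, 0.00832 and 0.0580 under the same scalings in that order, 0.156 by TPM, and reversed to -0.0487 in the second quantification. The median log2 ratio of the quantifications, 0.655 in TPM and 0.475 to 0.835 by library, reversed to -0.0167 as shares of counts and to -0.305 with copies. The reason for these reversals was not tested. The number of mRNAs over 1.5-fold apart, 11, ranged from 9 to 12. mt-Nd6 stayed below the plus-strand median, at a log2 of -3.72 and -4.17 to -3.28 by library. Ratios between the replicates cannot be had with a library left out. No paired analysis was possible because the labels give 1 group.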
